A study of Mus musculus with 9 samples.

Results

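The miR-125 seed family, which includes miR-351, is the set of mature mouse miRNAs that share bases 2 to 8, the seed that pairs with target mRNAs. Its members here were mmu-miR-125a-5p, mmu-miR-125b-5p and mmu-miR-351-5p, 3 of the 817 mature miRNAs in the count table, taken by name. miR-351-5p made up 98.4 to 99.7% of the family's reads in every library. In Tut4/7 CTL libraries 30.9% ± 17.1 (SD, n = 5) of its reads carried 1 to 3 Ts beyond the annotated 3′ end, and in Tut4/7 cKO libraries 0.0433% ± 0.0865 (SD, n = 4). miR-125a-5p and miR-125b-5p were present at 0 to 6 reads per library, and no read of either carried an added T.

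The libraries were small RNA sequencing (sRNA-seq) of preleukemic mouse cells, 5 from Tut4/7 CTL and 4 from Tut4/7 cKO cultures. Both groups were c-Kit-enriched cells of mid-gestation fetal liver on a C57BL/6 background, transformed with retroviral Meis1 and Hoxa9 (spelled Hox9/Meis1 in the sample labels) and replated serially. They grew in the cytokines stem cell factor, IL-6 and IL-3, and for the serial replating the study's methods also list granulocyte-macrophage colony-stimulating factor. Tut4/7 CTL cells carried floxed Tut4 and Tut7 alleles without Vav-iCre and are labelled WT, and Tut4/7 cKO cells carried the same alleles with Vav-iCre, a Cre driven in blood cells, and are labelled KO. The study's methods describe replicates as coming from independent animals or embryos, whereas the sample labels do not tie a library to an embryo. The P values refer to the spread between these libraries. Those of edgeR and DESeq2 also draw on the spread of the other miRNAs, so they can be smaller than the libraries of a single miRNA would give. The deletion could not be checked in these libraries, because sRNA-seq does not capture mRNAs such as those of Tut4 and Tut7.

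TUT4 and TUT7 are terminal uridylyl transferases, which add uridines to the 3′ ends of RNAs, and an added uridine is read as a T in sequencing. The miR-125 family is the mammalian counterpart of lin-4 of nematodes, and miR-125b is known for its roles in blood stem cells and leukemia. A 5p miRNA ends at a cut made by Dicer and a 3p miRNA at a cut made by Drosha, so the 2 arms of a hairpin have 3′ ends of different origin.

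The mature sequences are shown because the seed defines the family and the 3′ part separates its members. They are RefSeq sequences, 5′ to 3′, with the seed in capitals:
mmu-miR-125a-5p: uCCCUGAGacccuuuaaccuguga
mmu-miR-125b-5p: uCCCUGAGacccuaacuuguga
mmu-miR-351-5p: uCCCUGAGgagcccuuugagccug
miR-125a-5p and miR-125b-5p shared their first 13 bases, whereas miR-351-5p shared 8 with each of them. No read sequence of any of the 3 members was contained in another of the 1679 mature sequences followed by Ts, so reads were not shared between members. miR-6367 and miR-6394 hold the same seed in RefSeq and are not in the count table.

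The reads of miR-351-5p with and without added Ts are shown because the comparison of genotypes rests on them. They are the reads that begin at the first annotated base, with the added Ts in capitals:
miR-351-5p with no added T: tccctgaggagccctttgagcctg
miR-351-5p with 1 added T: tccctgaggagccctttgagcctgT
miR-351-5p with 2 added Ts: tccctgaggagccctttgagcctgTT
miR-351-5p with 3 added Ts: tccctgaggagccctttgagcctgTTT
The form with no added T was read 1043 times across Tut4/7 CTL and 1436 times across Tut4/7 cKO libraries. The form with 1 added T was read 970 times in Tut4/7 CTL and 2 times in Tut4/7 cKO libraries. The forms with 2 and 3 added Ts were read 115 and 32 times in Tut4/7 CTL libraries and in no Tut4/7 cKO library. Of all miR-351-5p reads, 7 of 3437 from Tut4/7 CTL and 6 of 2857 from Tut4/7 cKO cells began past the first base.

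The mature sequence of miR-351-5p matched GRCm39 at chrX:52142192-52142215 on the minus strand, inside Mir351 and an exon of the lncRNA gene Mir503hg of the same strand (GENCODE vM39). The genome continues there with G, so that an added T is not the next genomic base. miR-125a-5p matched chr17:18051079-18051102 on the plus strand, in Mir125a and within an exon of Spaca6, and is followed by G. miR-125b-5p matched 2 loci, Mir125b-1 at chr9:41493236-41493257, followed by T, and Mir125b-2 at chr16:77443167-77443188, followed by G, both on the plus strand. The chr9 locus lies in an exon of the lncRNA gene Gm28119 and within Mir100hg, and the chr16 locus lies within the lncRNA gene Mir99ahg, outside its exons. A mature miR-125b-5p read cannot be assigned to either.

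Libraries held 209702 to 316620 miRNA reads in Tut4/7 CTL and 175462 to 479342 in Tut4/7 cKO. Tut4/7 CTL replicate 2 stood apart in tailing. Over the 122 miRNAs that reached 10 reads in each of the 9 libraries, its median share of reads with added Ts was 0.900%, against 4.03 to 5.29% in the other Tut4/7 CTL libraries and 0.219 to 0.271% in Tut4/7 cKO libraries, and tail shares are therefore also given without it. The labelled blood origin was checked with listed miRNA markers, whose summed level in counts per 1000000 (CPM) was 43701 to 71811 in Tut4/7 CTL and 47498 to 75026 in Tut4/7 cKO libraries for the blood list, with 6 of 6 read. Most of that sum was miR-181a-5p (34843 to 58599 and 42230 to 68812 CPM), followed by miR-223-3p (2991 to 11447 and 1027 to 9501 CPM) and miR-155-5p (734 to 5720 and 1164 to 7969 CPM). The blood markers miR-142a-3p, miR-142a-5p and miR-150-5p were low, at 30.2 to 157, 0 to 13.96 and 4.47 to 279.8 CPM over all 9 libraries, and miR-142a-3p lay below the hepatocyte marker miR-122-5p (482 to 1505 CPM). The erythroid list was near 0, with miR-144-3p without a read and miR-451a at 6.83 CPM or less. The hepatocyte list summed to 565 to 1350.3 CPM in Tut4/7 CTL and 833 to 1638 CPM in Tut4/7 cKO libraries, and the epithelium list to 823 to 1417 and 355 to 1416 CPM. The stroma and muscle list reached 27.3 CPM and the neuron list 7.52 CPM at most, with miR-133a-3p and miR-124-3p without a read. The sums of both genotypes overlapped for every list. Among single markers, miR-194-5p of the hepatocyte list did not overlap, at 23.5 to 48.9 CPM in Tut4/7 CTL and 68.3 to 112 CPM in Tut4/7 cKO libraries. Its log2 fold change was 1.34 (adjusted P = 0.0873 in edgeR's test and 0.00808 in DESeq2's). Of the 205 miRNAs tested for level, edgeR called 0 and DESeq2 6 higher in Tut4/7 cKO. How many of all miRNAs lacked overlap was not counted, and the part of miR-194-5p in the results was not tested.

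The first question was whether the level of the family differed between genotypes. Levels are CPM after TMM scaling, in which each read is counted once, PCR copies included, and no length correction applies. Ligation to adapters differs between miRNAs, so levels are best compared between libraries. miR-351-5p was at 1210.4, 2403, 3026, 2066 and 3408 CPM in Tut4/7 CTL replicates 1 to 5. It was at 2117, 3141, 2422 and 829.9 CPM in Tut4/7 cKO replicates 1 to 4. The groups overlapped, with Tut4/7 cKO replicate 4 the lowest of the 9 libraries and Tut4/7 CTL replicate 5 the highest. The means were 2423 ± 856 (SD, n = 5) and 2127 ± 966 CPM (SD, n = 4), which placed miR-351-5p 47th and 51st of 817 miRNAs. Without Tut4/7 cKO replicate 4 the Tut4/7 cKO mean was 2559.9 ± 526 CPM (SD, n = 3), so the order of the means turned.

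The difference in level of miR-351-5p was within the spread between libraries (adjusted P = 0.855 in edgeR's quasi-likelihood test, for a log2 fold change of −0.19 with a standard error of 0.43). Across the 205 miRNAs tested, 0.488% were lower in Tut4/7 cKO at an adjusted P under 0.05. The direction depended on the tailed reads, since the log2 fold change was 0.25 (adjusted P = 0.816 in edgeR's test) when only reads without an added T were counted. Such a count leaves out 1122 of 3437 Tut4/7 CTL and 2 of 2857 Tut4/7 cKO reads of miR-351-5p, so the shift is not independent of the tail difference. The 3 members together gave 0.253% ± 0.0802 (SD, n = 5) of the total miRNA count under Tut4/7 CTL, beside 0.198% ± 0.0862 (SD, n = 4) under Tut4/7 cKO. Fewer expressing cells and less miRNA per cell cannot be told apart in these bulk samples.

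miR-125b-5p was read 1, 2, 6, 1 and 2 times in Tut4/7 CTL replicates 1 to 5 and 3, 4, 5 and 2 times in Tut4/7 cKO replicates 1 to 4. The sums were 12 and 14 reads, and per scaled read total the ratio of Tut4/7 cKO to Tut4/7 CTL was 1.19 (95% exact counting interval 0.513 to 2.83). miR-125a-5p was read 0, 0, 1, 4 and 6 times in Tut4/7 CTL replicates and 2, 2, 1 and 0 times in Tut4/7 cKO replicates. Its ratio was 0.465 (interval 0.127 to 1.45), and Tut4/7 CTL replicates 4 and 5 held 10 of its 16 reads. Both intervals span equality and cover counting error only. In edgeR's test without a filter on low counts, the adjusted P was 0.515 for miR-125a-5p and 0.918 for miR-125b-5p. The log2 fold change of miR-125a-5p was −1.04, and it ran from −1.48 without Tut4/7 cKO replicate 1 to −0.12 without Tut4/7 CTL replicate 5. That of miR-125b-5p was 0.24, and it ran from 0.06 without Tut4/7 CTL replicate 4 to 0.90 without replicate 3. A difference within these intervals was not detectable at this depth.

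**Figure D1:**
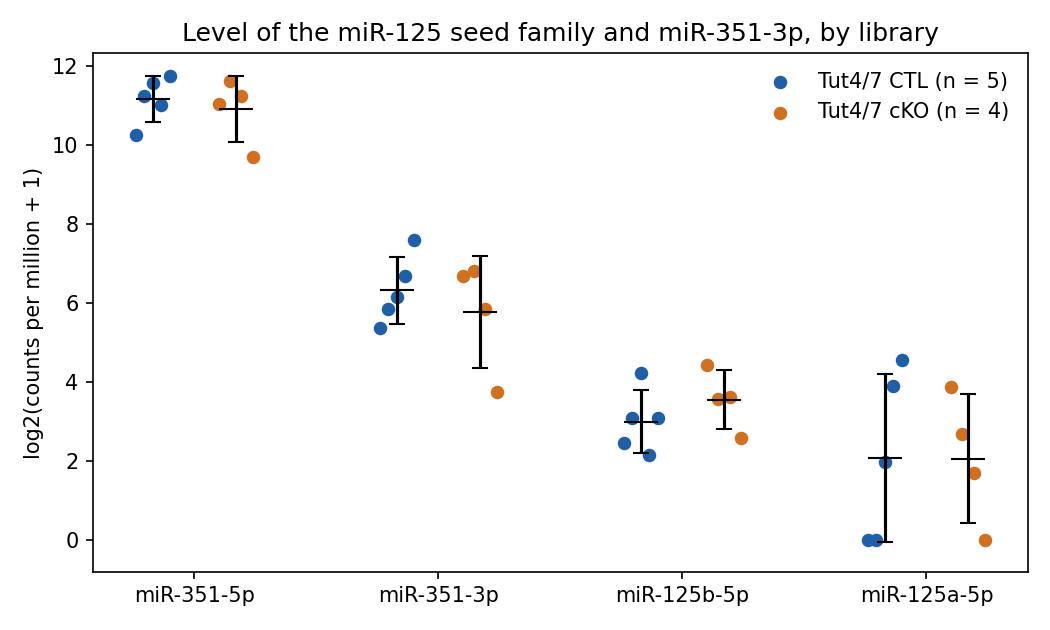
Level of miR-351-5p, its opposite arm miR-351-3p, miR-125b-5p and miR-125a-5p, as log2(CPM + 1). Each point is a library (blue, Tut4/7 CTL, n = 5; orange, Tut4/7 cKO, n = 4), with the mean and SD of the log2 values in black. Genotypes overlap for all of them, and miR-351-5p lies far above both miR-125 members.

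The opposite arms, which come from the same hairpins, were scarce. miR-351-3p was at 40.2, 56.5, 70.6, 101 and 192 CPM in Tut4/7 CTL replicates 1 to 5. It was at 102, 111, 57.1 and 12.6 CPM in Tut4/7 cKO replicates 1 to 4, and the groups overlapped (adjusted P = 0.800 in edgeR's test, for a log2 fold change of −0.41 with a standard error of 0.62). It gave 1.49 to 5.32% of the reads of both arms. miR-125a-3p had 1 read in all, in Tut4/7 CTL replicate 4, and the opposite arms miR-125b-1-3p and miR-125b-2-3p are not in the count table.

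The second question was whether the members' reads carried added Ts in each genotype. The share is the number of reads with 1 to 3 added Ts over all reads of the miRNA. In Tut4/7 CTL replicates 1 to 5 the share of miR-351-5p was 28.4% (77 of 271 reads), 3.29% (21 of 638), 33.8% (348 of 1029), 41.2% (244 of 592) and 47.6% (432 of 907). In Tut4/7 cKO replicates 1 to 4 it was 0 of 310 reads, 2 of 1156 reads (0.173%), 0 of 1061 reads and 0 of 330 reads. The lowest Tut4/7 CTL library, replicate 2, lay above the highest Tut4/7 cKO library, and the exact binomial 95% intervals of these 2 libraries, 2.05 to 4.99% and 0.0210 to 0.624%, did not overlap. How many of all miRNAs lacked overlap in this share was not counted. A count of 0 allows a share of up to 0.968%, 0.283% and 0.909% in Tut4/7 cKO replicates 1, 3 and 4. Intervals and limits cover counting error only, since PCR copies cannot be told from separate molecules.

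The share of miR-351-5p fell in Tut4/7 cKO (log2 fold change of the odds −8.84, standard error 1.10, adjusted P = 1.13e-05 in edgeR's test of tailed against other reads). Across the 151 miRNAs tested, 56.3% were lower in Tut4/7 cKO, with a median log2 fold change of −2.72 over all of them. The mean difference was −30.8 percentage points (exact permutation test, two-sided, P = 0.0159, the smallest that 5 against 4 libraries allow). Without Tut4/7 CTL replicate 2 the Tut4/7 CTL mean was 37.8% ± 8.41 (SD, n = 4) and the difference −37.7 points (exact permutation test, P = 0.0286, the smallest for 4 against 4).

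**Figure D2:**
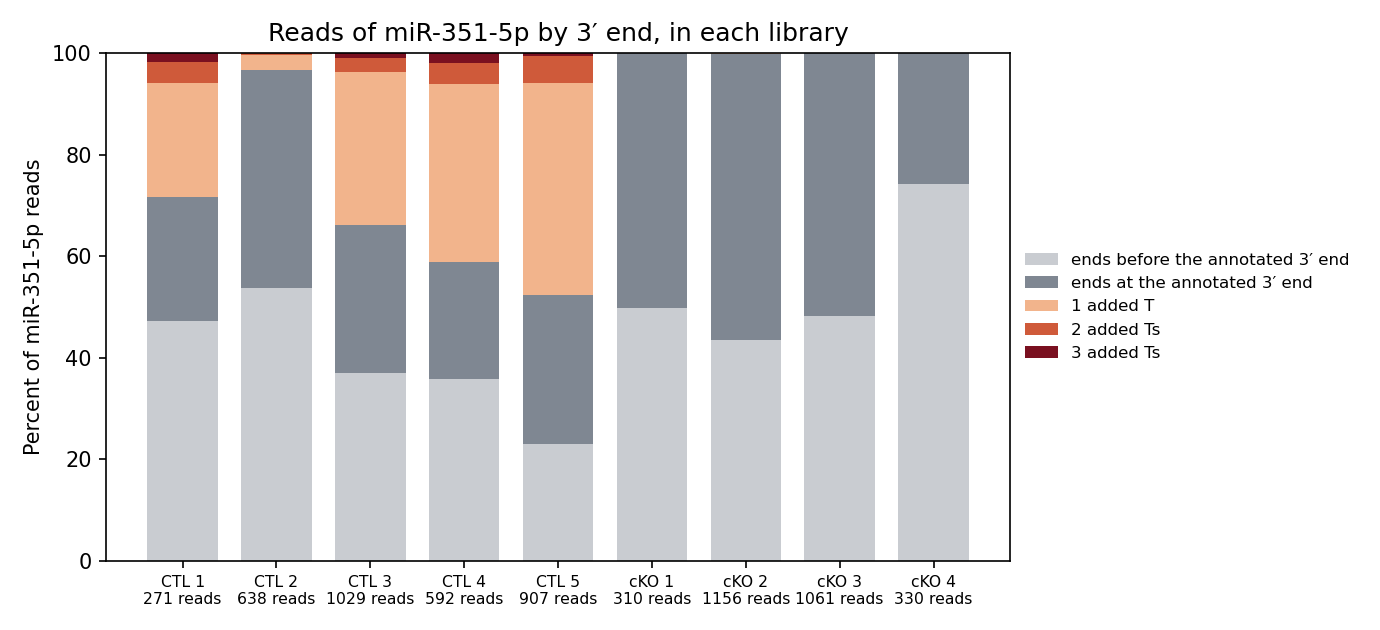
Percent of miR-351-5p reads by 3′ end in each of the 9 libraries, with the number of reads under each bar. Tailed reads are 28.4 to 47.6% of the bar in 4 Tut4/7 CTL libraries, 3.29% in Tut4/7 CTL replicate 2 and at most 0.173% in Tut4/7 cKO libraries.

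Reads with a single added T were 22.5, 2.98, 30.03, 35.1 and 41.7% of miR-351-5p reads in Tut4/7 CTL replicates 1 to 5. Both tailed reads in Tut4/7 cKO replicate 2 had 1 added T, and the other Tut4/7 cKO libraries had none. Summed over libraries, 975 of 3437 Tut4/7 CTL reads and 2 of 2857 Tut4/7 cKO reads had exactly 1 added T, a 405-fold lower share (95% exact counting interval 112 to 3351). That ratio was 255-fold without Tut4/7 cKO replicate 3. Without replicate 2, which held both reads, the share was at least 131-fold lower, by the lower end of the counting interval. The share fell in edgeR's test (log2 fold change of the odds −8.62, standard error 1.09, adjusted P = 1.76e-05), where 54.1% of 148 miRNAs were lower.

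Reads with 2 or 3 added Ts were 5.90, 0.313, 3.79, 6.08 and 5.95% of miR-351-5p reads in Tut4/7 CTL replicates 1 to 5, and no such read occurred among 2857 in Tut4/7 cKO libraries. That count allows a share of up to 0.105%, so the share was at least 40.7-fold lower against 3 counts over the group. The bound was 19.5-fold without Tut4/7 cKO replicate 2 and 20.6-fold without replicate 3. In edgeR's test the adjusted P was 6.14e-08, and 69.0% of the 71 miRNAs tested were lower. miR-351-5p met the entry rule of this test through Tut4/7 CTL libraries alone, and how many of the 71 did so was not counted. Separately, reads with 2 added Ts were at least 25.5-fold and reads with 3 added Ts at least 6.80-fold lower by the same interval. These bounds were 15.2-fold and 4.05-fold without Tut4/7 cKO replicate 2, and 16.0-fold and 4.28-fold without replicate 3. With 3 added Ts the groups touched, since Tut4/7 CTL replicate 2 also had none (exact permutation test, P = 0.0794).

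Among the tailed reads of miR-351-5p in Tut4/7 CTL libraries, 13.1% had 2 or 3 Ts, with 9.52 to 20.8% in single libraries. That was the 20th highest of 71 miRNAs with at least 50 tailed reads in Tut4/7 CTL libraries, whose median was 5.77%.

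The position at which reads end was then examined, because only reads that reach the annotated 3′ end can be seen as tailed. The reference held Ts only after that end, so a T added to a shortened form was mapped only where it matched the next annotated base, and was then counted as untailed. In Tut4/7 CTL replicates 1 to 5, 24.4, 43.1, 29.2, 22.97 and 29.3% of miR-351-5p reads ended at the annotated base. In Tut4/7 cKO replicates 1 to 4 the values were 50.3, 56.3, 51.7 and 25.8%. Tut4/7 cKO replicate 4 was low among its group, and the groups overlapped (exact permutation test, P = 0.0635). Reads that stopped 1 base short were 12.5 to 19.9% in Tut4/7 CTL and 21.0 to 24.5% in Tut4/7 cKO libraries, without overlap (exact permutation test, P = 0.0159, 1 of 11 end positions compared, adjusted P = 0.0582 by Benjamini-Hochberg). These shares have tailed reads in their denominator, so they are tied to the tail share.

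Among reads without an added T, the share that ended early did not differ beyond the spread between libraries. It was 66.0, 55.4, 55.9, 60.9 and 44.0% in Tut4/7 CTL replicates and 49.7, 43.6, 48.3 and 74.2% in Tut4/7 cKO replicates. Tut4/7 cKO replicate 4 was the highest of the 9. edgeR's test of early-ending against full-length reads gave a log2 fold change of the odds of −0.14 (standard error 0.40, adjusted P = 0.969), which was −0.54 without Tut4/7 cKO replicate 4 and 0.07 without replicate 2.

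A T after base 22 of miR-351-5p reads the same as its own base 23. Reads ending at base 23 were 54.7 to 66.5% of those ending at base 22 or 23 in Tut4/7 CTL libraries and 54.7 to 61.5% in Tut4/7 cKO libraries. The ranges overlapped, and the difference of means was −1.92 points (exact permutation test, P = 0.460).

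**Figure D3:**
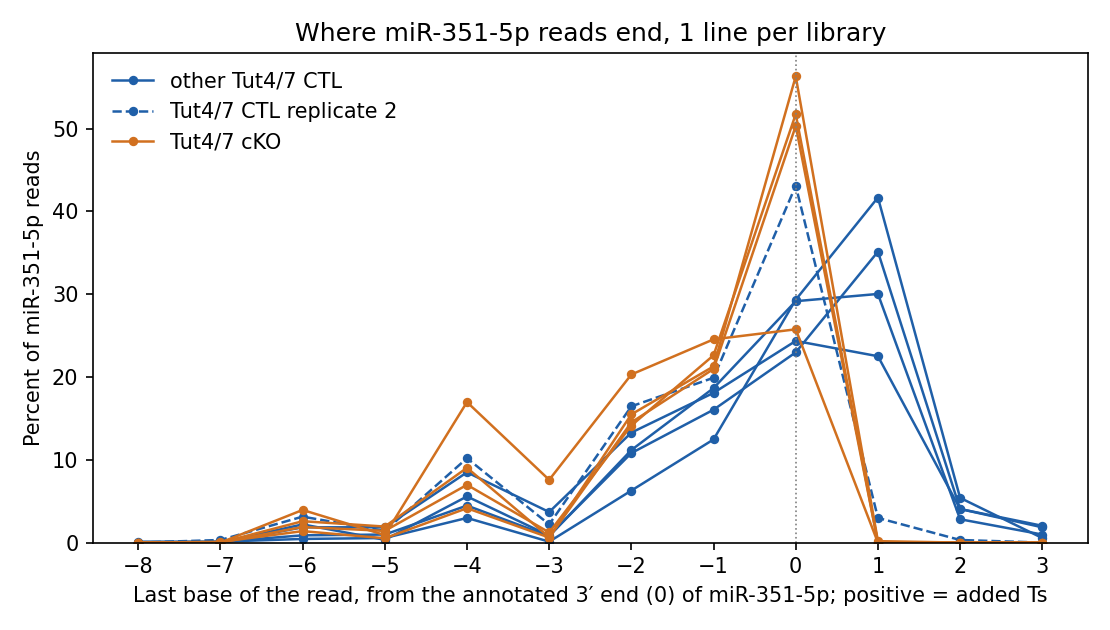
Percent of miR-351-5p reads by last base, counted from the annotated 3′ end (0), with 1 line per library. In Tut4/7 cKO libraries (orange) the lines drop to at most 0.173% at 1 added T, whereas 4 Tut4/7 CTL libraries (blue) hold 22.5 to 41.7% there and Tut4/7 CTL replicate 2 (dashed) 2.98%.

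Counted over only the reads that reached the annotated end, the tailed share of miR-351-5p was 53.8, 7.09, 53.7, 64.2 and 61.9% in Tut4/7 CTL replicates 1 to 5. Tailed reads thus outnumbered untailed ones that reached that end in 4 of the 5 libraries. In Tut4/7 cKO replicates 1 to 4 it was 0 of 156, 0.306% of 653, 0 of 549 and 0 of 85 reads. The difference of means was −48.1 points (exact permutation test, P = 0.0159). Without Tut4/7 CTL replicate 2 the Tut4/7 CTL mean was 58.4% ± 5.44 (SD, n = 4).

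miR-125a-5p and miR-125b-5p gave almost no reads on which a tail could be seen. Only 1 of 11 miR-125a-5p reads in Tut4/7 CTL libraries (replicate 5) and 0 of 5 in Tut4/7 cKO libraries ended at the annotated base. For miR-125b-5p it was 1 of 12 (Tut4/7 CTL replicate 3) and 0 of 14. The other reads stopped 1 to 3 bases short for miR-125a-5p and 1 to 6 bases short for miR-125b-5p. Tailed reads numbered 0 of 11 and 0 of 5 for miR-125a-5p, which allows shares of up to 27.3% and 60.0%. They numbered 0 of 12 and 0 of 14 for miR-125b-5p, which allows up to 25.0% and 21.4%. Neither entered a test of shares, and a tail share as high as 20% could not have been told from 0 in either genotype.

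miR-351-3p, the opposite arm of the miR-351 hairpin, also had tailed reads. Its mature form and the form with 1 added T (in capitals) are shown because the arm differs from miR-351-5p in what the genome holds next:
miR-351-3p with no added T: ggtcaagaggcgcctgggaac
miR-351-3p with 1 added T: ggtcaagaggcgcctgggaacT
It matched chrX:52142153-52142173 on the minus strand (GRCm39), and the next genomic base is T. A read with 1 added T can therefore not be told from a read 1 base longer at the cut. Tailed reads were 2 of 9, 2 of 15, 10 of 24, 7 of 29 and 19 of 51 in Tut4/7 CTL replicates 1 to 5. They were 0 of 15, 1 of 41, 0 of 25 and 0 of 5 in Tut4/7 cKO replicates 1 to 4. The groups did not overlap, with means of 27.7% ± 11.6 (SD, n = 5) and 0.610% ± 1.22 (SD, n = 4). Lack of overlap in tail share was not counted over all miRNAs.

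The share of miR-351-3p fell in edgeR's test (log2 fold change of the odds −4.53, standard error 0.95, adjusted P = 0.000699). Of the 128 Tut4/7 CTL reads, 40 were tailed, and all but 1 of these had a single T. The form shown with 1 added T was read 26 times in Tut4/7 CTL and 1 time in Tut4/7 cKO libraries. In Tut4/7 CTL libraries 16 of the 128 reads began past the first base, and 13 of these 16 were tailed. In Tut4/7 cKO libraries 1 of 86 reads began past the first base, and it was not tailed. At the depth of 9 to 51 reads per Tut4/7 CTL library, the exact 95% interval of a single share was as wide as 2.81 to 60.0% in replicate 1. Among reads that reached the annotated end, the Tut4/7 CTL share was 22.2, 14.3, 43.5, 24.1 and 38.8% for miR-351-3p, below that of miR-351-5p in 4 of 5 libraries and above it in replicate 2. That difference between arms was not tested.

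The miRNAs encoded beside the members were taken as a list of 23 mature forms. miR-351 lies on the X chromosome with miR-322, miR-503, miR-542 and miR-450, miR-125a lies with miR-99b and let-7e, and the miR-125b loci lie with miR-100, miR-99a and let-7 genes. The 13 mature forms of the X cluster matched within 6320 bases, chrX:52136885-52143204. Of the 23 neighbours 18 were in the count table and 7 passed the filter for the test of levels. None of the 7 passed edgeR's test or DESeq2's test at an adjusted P under 0.05, and 1, let-7a-5p, had an unadjusted P under 0.05 in edgeR (log2 fold change −0.76, standard error 0.29, adjusted P = 0.284). Their median log2 fold change was −0.28, beside −0.0051 over all 205 miRNAs.

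Neighbours at 100 CPM or more were let-7a-5p, let-7c-5p, miR-503-3p and miR-503-5p. miR-503, known to restrain the cell cycle, was at 164 ± 59.4 and 132 ± 54.5 CPM for its 5p arm and at 269.5 ± 73.3 and 285 ± 71.0 CPM for its 3p arm (SD, n = 5 Tut4/7 CTL and n = 4 Tut4/7 cKO). Both arms overlapped between genotypes. Each stood below miR-351-5p in all 9 libraries. let-7a-5p was at 77122 ± 24075 and 45581 ± 13989 CPM (SD, n = 5 and 4), and let-7c-5p at 2196 ± 2482 and 1619.8 ± 1785 CPM. The let-7 forms arise from several genes, so their reads do not measure the miR-125 clusters alone.

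Only 4 neighbours entered the test of reads with 1 to 3 added Ts, and 2 of these fell, beside 56.3% of all miRNAs tested. miR-322-3p and miR-503-5p had no tailed read in Tut4/7 cKO libraries and so entered through Tut4/7 CTL libraries alone. let-7a-5p fell from 4.60% ± 1.96 (SD, n = 5) to 0.873% ± 0.493 (SD, n = 4; log2 fold change of the odds −2.51, adjusted P = 0.000933 in edgeR's test). miR-322-3p, from the hairpin next to miR-503, had 2 of 15, 1 of 24, 8 of 31, 4 of 22 and 0 of 15 reads with added Ts in Tut4/7 CTL replicates 1 to 5. It had none among 2, 17, 23 and 26 reads in Tut4/7 cKO replicates 1 to 4 (adjusted P = 0.0240 in edgeR's test). The call for miR-322-3p was lost in edgeR's test without Tut4/7 CTL replicate 3 (adjusted P = 0.0668) and without Tut4/7 cKO replicate 2, 3 or 4 (0.0535, 0.0615 and 0.0669), and in the exact permutation test of the shares (P = 0.0794). miR-503-5p (1.96% ± 2.03, SD, n = 5, and no tailed read in Tut4/7 cKO libraries) and let-7c-5p did not pass (adjusted P = 0.101 and 0.249 in edgeR's test).

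Set among the other miRNAs, miR-351-5p combined a high share in Tut4/7 CTL with a low one in Tut4/7 cKO libraries. Among those 122 miRNAs with 10 reads or more throughout, its mean Tut4/7 CTL share was the 14th highest, and the median of these means was 4.59%. Its mean Tut4/7 cKO share was the 22nd lowest of the 122, whose median was 0.421%. Of the 122, 40 had a Tut4/7 CTL mean over 10%, and in 12 of the 40 the Tut4/7 cKO mean was under 1%. Its fitted fold change was the lowest of 151 miRNAs tested, a fit that rests on 2 reads in Tut4/7 cKO libraries.

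**Figure D4:**
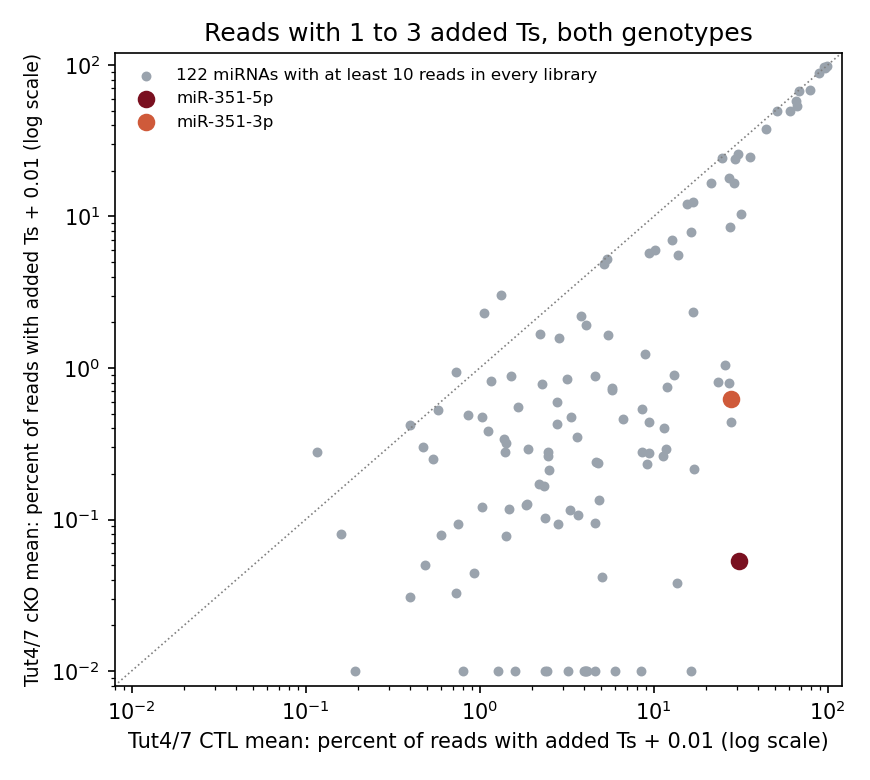
Mean percent of reads with 1 to 3 added Ts in Tut4/7 CTL (x, n = 5) and Tut4/7 cKO (y, n = 4) libraries, both plus 0.01 on log axes, for the 122 miRNAs that reached 10 reads in all 9 libraries and for miR-351-3p, which had 9 reads in Tut4/7 CTL replicate 1 and 5 in Tut4/7 cKO replicate 4. The dotted line marks equal shares. miR-351-5p lies at 30.9 and 0.0433%, miR-351-3p at 27.7 and 0.610%.

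The 3 miRNAs whose tail shares were closest to those of miR-351-5p over the 9 libraries were miR-148b-3p, miR-18a-3p and miR-652-3p, among 121 compared. The root mean square differences were 5.72, 6.49 and 6.73 percentage points, against a median of 23.4 over the 121. Their means in Tut4/7 CTL libraries were 25.8, 27.8 and 27.1%, and in Tut4/7 cKO libraries 1.03, 0.431 and 0.791%. In Tut4/7 CTL replicate 2 they were at 3.51, 5.17 and 2.22%, beside 3.29% for miR-351-5p. That library was among the 9 by which they were chosen.

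**Figure D5:**
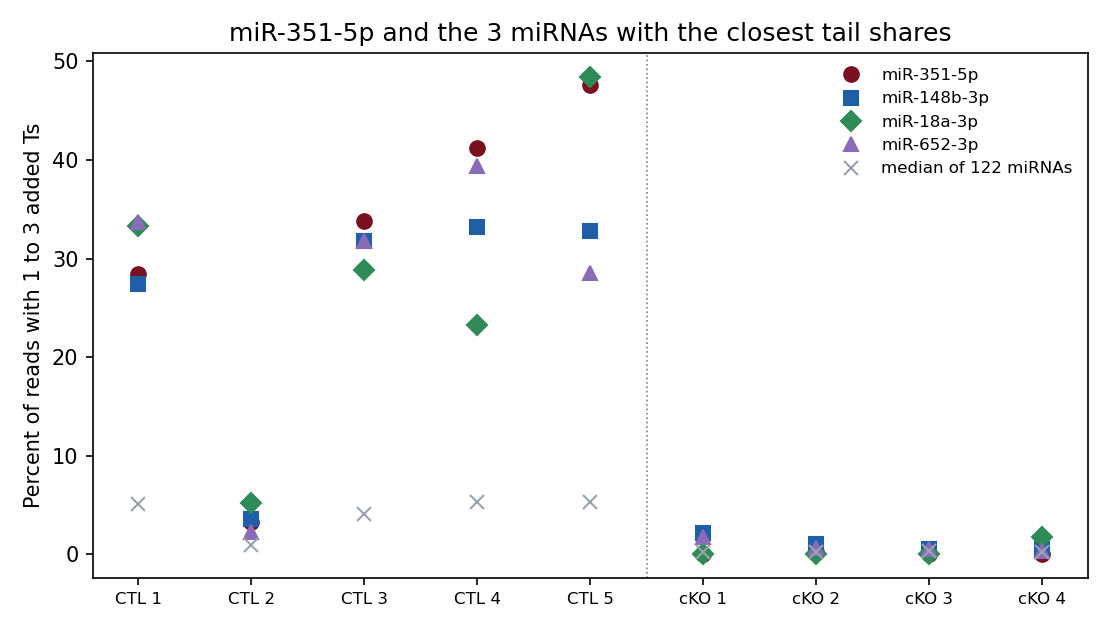
Percent of reads with 1 to 3 added Ts in each library for miR-351-5p, the 3 miRNAs with the closest shares and the median of 122 miRNAs. miR-351-5p ranges from 28.4 to 47.6% in 4 Tut4/7 CTL libraries, and Tut4/7 CTL replicate 2 is low for all of them.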

How the data were processed

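sRNA-seq libraries of 5 Tut4/7 CTL and 4 Tut4/7 cKO cultures were analyzed. The authors trimmed reads with cutadapt (5.0) and mapped them with Bowtie (1.3.1), allowing no mismatches, to miRBase mature sequences extended by 3 Ts. They deposited raw counts per miRNA and, per library, counts per distinct read sequence with its end coordinates. These counts were summed into reads ending before, at or 1 to 3 Ts past the mature end, and the sums matched the count table in every cell. Replicates were not pooled.

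Levels were tested with edgeR (4.0.16; R 4.3.3) on miRNAs that reached 10 reads in 4 or more libraries. Shares were tested in edgeR as an interaction of read class and genotype with library effects, for miRNAs that reached 10 reads in 5 libraries and a read of the class in 3. These 3 could be of any genotype, so a miRNA tailed in Tut4/7 CTL libraries alone could enter. The percentages called lower depend on this rule. For 1 to 3 added Ts, requiring the 3 among Tut4/7 CTL libraries left 143 miRNAs, of which 85 were lower. P values were adjusted by Benjamini-Hochberg over all miRNAs tested. Single values were compared by two-sided exact permutation (SciPy 1.17.1). DESeq2 (1.42.0), other filters and leaving out libraries were alternatives. On simulated data, edgeR recovered 39 of 50 changed levels with 1 false call among 205 miRNAs (changes of 2 on the log2 scale), and 38 of 50 changed tail shares with 1 false call among 151 (changes of −3).

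miR-125a-5p and miR-125b-5p did not pass the filters, so their levels were tested without one and their shares were not tested. Differences in share between members were planned and left out. miR-125b-5p had no tailed read in any library, so its difference from miR-351-5p equals the share of miR-351-5p, and miR-125a-5p had no read in 3 libraries. Named miRNAs were the members, their opposite arms, others with the same seed, cluster neighbours at a mean of 100 CPM or more in either genotype or passing a test, and the 3 with the closest tail shares. The members and lists were chosen with earlier results of these data known. Loci were matched on GRCm39 on the chromosomes that RefSeq gives for each miRNA, and RefSeq sequences (GRCm38.p6 table) were found for all 3 members. The mean depth per library limited shares as given beside each value.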

Additional observations from a re-analysis of the deposited data

Results flagged for a closer look

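Of 22 sets of libraries of 1 genotype examined for miR-351-5p and miR-351-3p, 8 held a library far from the others by Dixon's criterion. Where all other libraries of a set are at 0, any tailed read meets that criterion. The count of 8 can therefore not be set against a rate expected by chance. The sets share reads and are not independent. In Tut4/7 cKO replicate 2, the share of miR-351-5p reads with 1 to 3 added Ts and that with exactly 1 were both 0.173%, and the tailed share of reads reaching the annotated end was 0.306%, against 0 in the other 3 libraries. In the same library, the shares of miR-351-3p with 1 to 3 and with exactly 1 added T were both 2.44%, and that of reads reaching the end was 2.70%, again against 0. These 6 values rest on 2 reads of miR-351-5p and 1 of miR-351-3p. In Tut4/7 CTL replicate 5, reads of miR-351-3p with 2 or 3 added Ts were 1.96%, a single read, against 0 in the other 4 libraries. In Tut4/7 CTL replicate 2, the tailed share of miR-351-5p reads reaching the annotated end was 7.09%, against 53.7% in the nearest Tut4/7 CTL library.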

How the results depend on the processing

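For miR-351-5p, the shares with 1 to 3, exactly 1, and 2 or 3 added Ts kept their direction and their call under all of 16, 13 and 13 alternatives, the replicate block and each left-out library included. With 1 library left out, their log2 fold changes ranged from −10.57 to −8.31, −10.35 to −8.09 and −8.77 to −7.79. In the quasi-binomial model the estimate for 2 or 3 Ts has no finite value, because no Tut4/7 cKO read had them. The level of miR-351-5p turned from −0.19 to 0.25 when reads without an added T were counted alone, and ranged from −0.44 to −0.01 with 1 library left out, never passing the test. The difference of its mean CPM (Tut4/7 cKO minus Tut4/7 CTL) turned from −295 to 137 without Tut4/7 cKO replicate 4. The share of its reads without an added T that ended early ranged from −0.54 to 0.072 with 1 library left out. The level of miR-125a-5p turned from −1.04 to 0.039 under the replicate block. The levels of miR-125a-5p and miR-125b-5p ranged from −1.48 to −0.12 and 0.06 to 0.90 with 1 library left out. No other fitted direction of a member changed, and the share of miR-351-3p with 1 to 3 added Ts kept its call under 15 alternatives. Counting only reads that reach the annotated end, and all alternatives for miR-351-3p, miR-322-3p and let-7a-5p, were chosen after seeing the data. Same-numbered libraries correlated at −0.20 to 0.43 in levels and −0.07 to 0.06 in tail odds. The best-correlated control had the same number only for replicate 3 in levels and replicate 1 in tail odds. Pairing by number was thus not shown, and so few pairs cannot exclude it. With the replicate block the calls lower in Tut4/7 cKO were 67 in place of 85, 63 in place of 80 and 36 in place of 49 for the 3 tail shares, and 0 in place of 1 for levels. Over all miRNAs, levels gave 5 lower and 6 higher calls with DESeq2 and 8 lower and 10 higher without a filter, in place of 1 lower. The depth of 0 to 6 reads limits every statement on miR-125a-5p and miR-125b-5p.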
